A study of Mus musculus with 2 samples.

Results

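Cytosolic ribosomal proteins and their paralogs were described in total RNA from the embryonic mouse hindbrain, from which cerebellum, pons and medulla develop. The genes were chosen by symbol. The rule took protein-coding genes named Rpl or Rps with a number, Rpsa and the Rplp genes, and left out the Rps6k kinases, pseudogene symbols and Rps19bp1. It gave 85 of 43346 genes, of which 46 encode core proteins of the large subunit and 31 core proteins of the small subunit. The other 8 are paralogs, which are further genes related to a core gene in sequence: Rpl3l, Rpl7l1, Rpl10l, Rpl22l1, Rpl36al, Rpl39l, Rps27l and Rps27rt.

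A ribosome consists of ribosomal RNA and a set of core proteins in fixed proportions, and the genes of both subunits are expressed together in most cells. Many of their mRNAs begin with a 5′ terminal oligopyrimidine tract (TOP), a C followed by a run of pyrimidines, through which LARP1 and the kinase mTORC1 control their translation. The mRNAs are short and abundant, and retrotransposition has scattered processed pseudogenes of them through mammalian genomes. Mutations in single ribosomal protein genes can give tissue-selective defects in embryos, such as the changed axial skeleton of mice with reduced Rpl38.

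The series was analysed as 2 libraries of 1 group, from embryos of strain B6NCrl at 14.5 days of gestation; the labels name no treatment and no modified allele. Per the labels, each library was made from the hindbrain of 1 pup, with 10 ng of RNA longer than 200 bases and added spike-in RNAs. Replicate 2 and replicate 1 were collected on different dates, so date and replicate cannot be told apart. Both carry the same donor identifier and a sex given as pooled, and whether they are separate embryos rests on the pup and date entries alone.

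The libraries held 33510896 expected counts (estimated reads) in replicate 2 and 34929425 in replicate 1. Of 10 hindbrain markers, 9 reached at least 1 TPM (a share of all transcripts, normalised for length) in both libraries, En2 being the exception, and of 8 forebrain markers only Lhx2 did. Lists of markers of other cell types differed between the libraries. The summed TPM of 7 choroid plexus markers was 1180 in replicate 2 and 1950 in replicate 1, and that of 8 meningeal and fibroblast markers was 629 and 753. The summed TPM of 14 proliferation markers was 494 in replicate 2 and 411 in replicate 1, and that of 10 erythroid markers was 14210 and 12433. The erythroid sum was mostly adult globins, and the embryonic globins went the other way: Hbb-y had 137 TPM in replicate 2 and 534 TPM in replicate 1, and Hba-x had 30.7 and 75.5 TPM. No marker of these 4 lists was listed at 0. In bulk tissue, fewer cells of a type and less RNA per cell cannot be told apart.

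Core ribosomal protein mRNAs were abundant in this tissue, and all of them were detected. Of the 85 genes, 82 reached at least 1 TPM in both libraries; these included all 77 core genes, and the exceptions were the paralogs Rpl3l, Rpl10l and Rpl39l. A level of 100 TPM was reached by 78 genes. Together the 85 genes held 3.64% of all TPM in replicate 2 and 4.23% in replicate 1 (mean 3.93% ± 0.421, SD, n = 2). They held less of the reads, 1.28% of expected counts in replicate 2 and 1.52% in replicate 1, since TPM counts molecules per length and these mRNAs are short. By mean TPM, 63 of the genes were among the 500 most abundant genes, and Rpl41 and Rps19 were among the top 100.

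Among large subunit genes, Rpl41, which encodes the smallest ribosomal protein, was highest, with 1824 TPM in replicate 2 and 2252 TPM in replicate 1 (2038 ± 302, SD, n = 2). Rpl32 had 849 TPM in replicate 2 and 977 TPM in replicate 1, Rpl37a had 787 and 979.9 TPM, and Rplp1, an acidic protein of the stalk that recruits translation factors, had 818 and 930.4 TPM. The order of Rpl32, Rpl37a and Rplp1 was not resolved, since they differed by less than the libraries did. At the low end, Rpl27 had 115 TPM in replicate 2 and 124 TPM in replicate 1. Rpl12, which sits at the base of the stalk, had 84.0 and 87.7 TPM, and Rpl27a had 66.7 and 72.2 TPM. Rpl5, which binds 5S ribosomal RNA together with Rpl11, was the lowest core gene, with 42.9 TPM in replicate 2 and 50.03 TPM in replicate 1. These 4 genes were chosen as the lowest by their mean over the same libraries.

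Among small subunit genes, Rps19 was highest, with 985 TPM in replicate 2 and 1278 TPM in replicate 1 (1132 ± 207, SD, n = 2); its human counterpart is mutated in Diamond-Blackfan anaemia. Rps29 had 838 and 1013 TPM, and Rps14, a protein of the subunit's platform, had 791 and 944 TPM. The lowest was Rps23, a protein of the decoding centre, with 129 TPM in replicate 2 and 143 TPM in replicate 1. Rps12 had 135 and 162 TPM, Rps20 had 241 and 306 TPM, and Rps27, a zinc-finger protein, had 282 and 310.2 TPM. Rps23 was above each of the 4 lowest large subunit genes in both libraries.

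**Figure D1:**
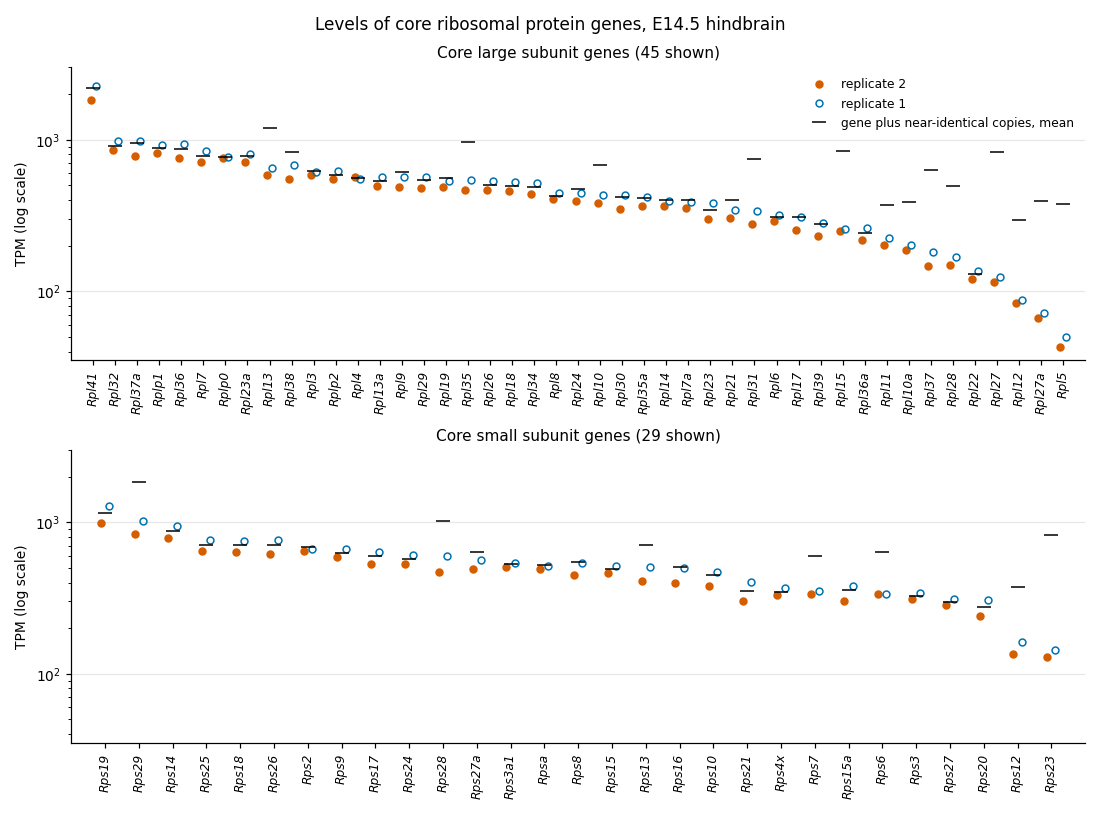
TPM of 45 large and 29 small subunit core genes on a log axis, large subunit above and small subunit below, in falling order of the mean; filled orange points are replicate 2, open blue points replicate 1, and black dashes the mean after adding near-identical copies. Rpl41 stands above the rest at 1824 and 2252 TPM. At the right end the dashes lie far above the points for most large subunit genes, such as Rpl5. In the small subunit they do so for Rps23 and Rps12, but not for Rps20 and Rps27. Rps27rt, identical to Rps27 in coding sequence, is itself a member and was not added to Rps27 as a copy.

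The large subunit genes had a median of 401 TPM in replicate 2 and 445 TPM in replicate 1, against small subunit medians of 472 and 537 TPM. The difference of median log2(TPM + 1), large minus small, was -0.24 in replicate 2 and -0.27 in replicate 1 (mean -0.25 ± 0.02, SD, n = 2). Within each subunit the genes spread far wider than this. Across all 77 core genes the SD of log2(TPM + 1) was 0.92 in replicate 2 and 0.93 in replicate 1, against 1.89 and 1.88 over 13429 protein-coding genes with at least 1 TPM. Of the 77 core genes, 63 lay within a factor of 2 of the core median in both libraries. Over the 82 detected genes, log2(TPM + 1) had a Pearson r of 0.99 between the libraries, a description across genes, which are not independent replicates.

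Proteins that act as small complexes did not share one mRNA level. Rplp0, the scaffold of the stalk, had 755 TPM in replicate 2 and 774 TPM in replicate 1, and Rplp2, the second acidic stalk protein, had 547 and 623 TPM, both far above Rpl12 at the stalk base. Rpl11, the partner of Rpl5 in the 5S particle, had 203 TPM in replicate 2 and 226 TPM in replicate 1. Reads of Rpl5, Rpl11 and Rpl12 could also be assigned to copies elsewhere in the genome, which bears on these gaps. Ribosomal proteins whose symbols fall outside the rule were in the same range. Fau, a ubiquitin-like fusion with a small subunit protein, had 356 TPM in replicate 2 and 434 TPM in replicate 1, and the scaffold protein Rack1 had 338 and 359 TPM.

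For 11 core genes, near-identical copies elsewhere in the genome held more TPM than the gene itself in both libraries, and the lowest core genes were among them. A copy was counted where the transcript of a gene other than the 85 matched a member at 90% identity or more, over at least 100 bases and 50% of the copy. There were 773 copies, of which 758 are annotated as pseudogenes, and 81 of the 85 genes had at least 1; Rpl21, with 59, had the most. Few copies had signal: 126 reached 1 TPM and 25 reached 100 TPM in both libraries, and 19 of those 25 matched at 100% identity. The copies together held 9353 TPM in replicate 2 and 11231 TPM in replicate 1. In expected counts the copies held more than the gene for 7 core genes, since a read on a shorter annotated copy counts for more TPM.

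Rpl5 (chr5:107900502-107909005, plus strand, mm10) had the largest share of TPM in copies. The gene had 42.9 TPM in replicate 2 and 50.03 TPM in replicate 1, while its copies held 319 and 336 TPM, mainly at Gm15500 (chr7:114705217-114706235), a processed pseudogene 100% identical over 1018 bases. With copies added, Rpl5 stood at 362 TPM in replicate 2 and 386 TPM in replicate 1, and Rpl11 with its copies at 343 and 403 TPM. The gap between the partners of the 5S particle was thus no longer larger than the difference between the libraries.

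Copies of Rpl27 held 620 TPM in replicate 2 and 792 TPM in replicate 1, mostly at Gm11518 and Rpl27-ps3, against 115 and 124 TPM at Rpl27 itself. Copies of Rps23 held 604 and 759 TPM, mainly at Rps23-ps1 (chr3:37714740-37715164), against 129 and 143 TPM at Rps23. Copies of Rpl27a held 305 and 349 TPM, and those of Rpl12 held 199 and 224 TPM. Together with Rpl5, these are the 4 lowest genes of the large subunit and the lowest of the small subunit. For Rpl15, Rpl28, Rpl31, Rpl37 and Rps12 the copies held between 58.4% and 74.5% of the summed TPM in either library. In expected counts the copies still held more than the gene for Rpl28 and Rps12, but less for Rpl15, Rpl31 and Rpl37. Rps29 was near balance in TPM, with 838 and 1013 TPM at the gene and 804 and 1007 TPM at its copy Gm14303. Of the summed expected counts, the copies of Rps29 held only 19.2% in replicate 2 and 19.8% in replicate 1. Among the copies, Rpl37rt and Rps12l1 carry ribosomal protein symbols of their own but are annotated as pseudogenes. Rpl37rt had 402 TPM in replicate 2 and 529 TPM in replicate 1, and Rps12l1 had 174 and 211 TPM. Rps4l, also annotated as a pseudogene but not counted as a copy, had 173 and 222 TPM.

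**Figure D2:**
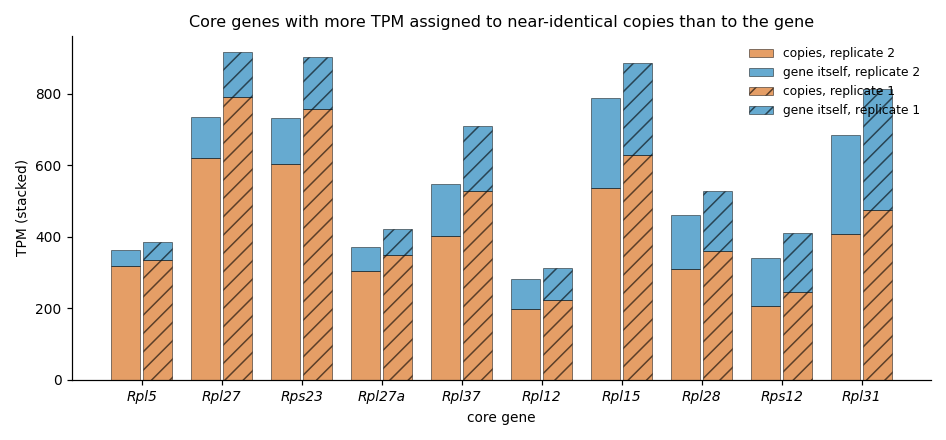
Stacked TPM of 10 of the 11 core genes whose near-identical copies held more TPM than the gene, with replicate 2 as plain and replicate 1 as hatched bars; orange is the sum over copies and blue the gene itself. Rpl5 has the thinnest blue part, 42.9 and 50.03 TPM.

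With copies added, the core genes lay closer together. The SD of log2(TPM + 1) across the 77 core genes was then 0.66 in replicate 2 and 0.67 in replicate 1, and 68 genes lay within a factor of 2 of the median. The difference of medians, large minus small, was -0.12 in replicate 2 and -0.17 in replicate 1 (mean -0.14 ± 0.04, SD, n = 2), smaller than without copies. Whether the reads assigned to copies came from the parent mRNA was not tested, since the tables used here hold no alignments.

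How far a gene can be told from its copies differed widely. The share of 100-base windows of a member's main coding transcript that occur unchanged in another gene's transcript was 0 for 12 members, among them Rpl32, Rps9 and Rpl22. At the other end, 21 members had every coding window shared, among them Rpl5, Rpl12, Rpl15, Rpl27, Rpl27a, Rps6, Rps23, Rps27 and Rps27rt. The deposited posterior SD of the count, as a percentage of the posterior mean, was largest for Rps27 at 8.26%, Rps12 at 5.65%, Rpl5 at 4.34%, Rpl12 at 3.27% and Rpl10 at 3.17% (means of the libraries). For the 9 detected members with no shared window it was at most 0.00286%, and for the 21 with all coding windows shared its median was 2.55%. Across the 82 detected members it followed the share of windows with a Spearman rho of 0.70. The level itself hardly did, with a rho of -0.15 over 77 core genes; both are descriptions across genes from the same libraries.

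Of the 8 paralogs, 5 reached at least 1 TPM in both libraries and 3 were near or at 0. Each was set against its core form as a percentage of the pair's summed TPM, a length-normalised share. Rps27rt, Rpl22l1 and Rpl36al were above their core forms in both libraries, and Rps27l and Rpl7l1 were below theirs. In expected counts, not normalised for length, Rpl22l1 was below and Rps27l above its core form. The place of Rps27l depends on how reads were split between Rps27 and Rps27rt.

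Rps27rt (chr9:114982366-114982739, minus strand, mm10) has 1 exon, and its coding sequence of 255 bases is identical to that of Rps27 (chr3:90212522-90213651, minus strand), which has 4 exons. Rps27rt had 673 TPM in replicate 2 and 881 TPM in replicate 1, against 282 and 310.2 TPM for Rps27, so that it held 70.5% and 74.0% of the pair. Rps27l (chr9:66946086-66949516, plus strand), a p53 target gene with 4 exons, had 174 TPM in replicate 2 and 206 TPM in replicate 1, or 38.2% and 39.9% of its pair with Rps27. In expected counts it held 61.3% and 63.0% of that pair. The coding sequences of the paralogs are shown because they decide which reads can be told apart. The line for Rps27rt is also the sequence of Rps27, and capitals in Rps27l mark the 61 of 255 positions at which it differs (GENCODE M21).
Rps27rt: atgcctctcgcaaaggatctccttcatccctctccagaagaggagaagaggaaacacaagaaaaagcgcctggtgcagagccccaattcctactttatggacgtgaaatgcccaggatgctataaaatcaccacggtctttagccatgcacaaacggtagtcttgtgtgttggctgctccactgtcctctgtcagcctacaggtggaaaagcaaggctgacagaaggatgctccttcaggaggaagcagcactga
Rps27l: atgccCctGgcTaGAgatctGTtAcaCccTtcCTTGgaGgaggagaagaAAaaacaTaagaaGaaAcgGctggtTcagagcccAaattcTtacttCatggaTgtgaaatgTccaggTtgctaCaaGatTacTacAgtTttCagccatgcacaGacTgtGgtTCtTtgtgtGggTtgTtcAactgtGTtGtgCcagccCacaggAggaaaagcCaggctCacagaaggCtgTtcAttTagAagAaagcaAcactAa
No 100-base window of Rps27l occurred in another gene, whereas every coding window of Rps27 and Rps27rt did. The effective length, the number of positions at which a read could start, was 156 bases for Rps27 in the deposited tables and 271 bases for Rps27rt. The deposited Rps27 model was 255 bases long, as long as its coding sequence, against 345 bases for the transcript in M21, and the deposited Rps27rt model was 370 bases long. Rps27rt had 3564 expected counts in replicate 2 and 5106 in replicate 1, against 860 and 1035 for Rps27. The split between Rps27rt and Rps27 is therefore uncertain. Their summed expected counts, 4424 in replicate 2 and 6140 in replicate 1, do not depend on it. Shares of Rps27l in its pair with Rps27 depend on the split as well. With 1362 expected counts in replicate 2 and 1765 in replicate 1, Rps27l was below those sums in both libraries. Whether the reads assigned to Rps27rt came from that gene was not tested.

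Rpl22l1 and Rpl22 are RNA-binding proteins of the large subunit, and in the mouse Rpl22 represses Rpl22l1. Rpl22l1 (chr3:28805436-28807424, plus strand) had 227 TPM in replicate 2 and 267 TPM in replicate 1, against 121 and 137 TPM for Rpl22 (chr4:152325742-152334071, plus strand), or 65.3% and 66.1% of the pair. By gene TPM Rpl22l1 was above Rpl22 in both libraries. Of the TPM of Rpl22l1, however, 44.8% in replicate 2 and 41.7% in replicate 1 lay in transcripts not annotated as coding. For Rpl22 that share was 4.83% and 4.35%. Their coding sequences were 67.5% identical, and no window of Rpl22 occurred in another gene, whereas 55.1% of the coding windows of Rpl22l1 did. In expected counts Rpl22l1 was the smaller, with 44.9% and 47.5% of the pair, as the mean effective length was 422 bases for Rpl22l1 and 943 bases for Rpl22. The TPM order therefore rests on the annotated transcripts and their lengths.

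Rpl36al (chr12:69182731-69184083, minus strand), with 2 exons, had 299.5 TPM in replicate 2 and 352 TPM in replicate 1, against 218 and 263 TPM for the X-linked Rpl36a. It held 57.9% and 57.2% of the pair, at a coding identity of 87.9%. Rpl7l1 (chr17:46773907-46782672, minus strand), a relative of Rpl7, had 53.1 TPM in replicate 2 and 46.4 TPM in replicate 1, against 717 and 841 TPM for Rpl7, or 6.89% and 5.22% of the pair; in expected counts it held 21.2% and 17.1%. Its coding identity of 54.5% was the lowest of the 8 pairs.

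The other 3 paralogs are known from other tissues. In the mouse, Rpl3l is expressed in heart and skeletal muscle, and Rpl10l and Rpl39l in male germ cells, where Rpl10l stands in for its X-linked core gene. Rpl3l had 0.19 TPM in replicate 2 and 0.05 TPM in replicate 1, that is 4 and 1 expected counts, against 583 and 609.7 TPM for Rpl3. Rpl39l was listed at 0 in replicate 2 and at 0.21 TPM in replicate 1, with 2 expected counts, against 233 and 282 TPM for Rpl39. Rpl10l was listed at 0 in both libraries, against 383 and 429.7 TPM for Rpl10. A count of 0 allows a level of up to 0.0924 CPM (counts scaled by the gene total) in replicate 2 and 0.0889 CPM in replicate 1, which covers counting error only.

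**Figure D3:**
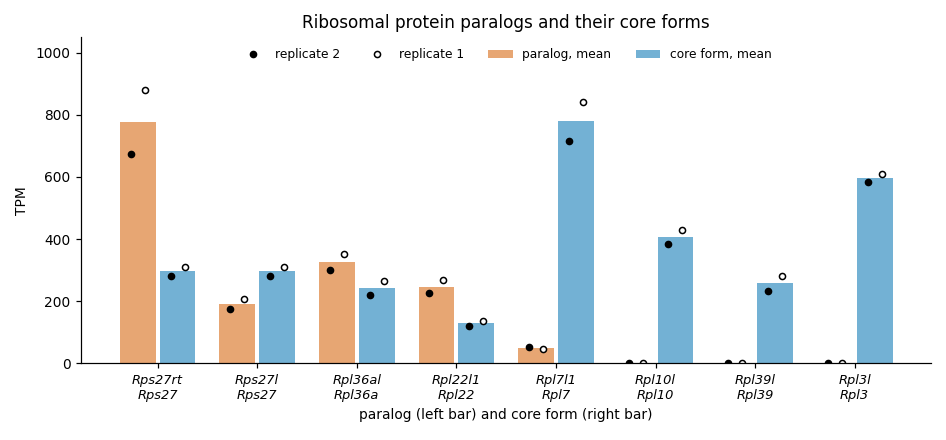
TPM of each paralog (left bar of a pair, orange) and its core form (right bar, blue) as the mean of the libraries, with filled points for replicate 2 and open points for replicate 1. Rps27rt, Rpl36al and Rpl22l1 stand above their core forms, and the last 3 paralogs lie at the axis.

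Start sites were read from the RefSeq promoter table (GRCm38.p6), in which 65 of the 85 genes were matched by symbol. A TOP start, here a C at the annotated first base followed by at least 4 C or T bases on the transcript strand, was present in 14 of the 65 (21.5%), against 813 of 27025 genes in the table (3.01%). A run of at least 8 C or T bases within 10 bases of the start, which can overlap the TOP start, was found in 32.3% of the 65 and in 8.71% of all genes. TATAAA on either strand of the 50 bases before the start was found in 1.54% of the 65 and in 4.17% of all genes. These are matches of letters at annotated starts, which can lie some bases away from the start used in a cell. The windows shown hold 12 bases before the start and 18 from it on, with the TOP run in capitals. They were chosen to show TOP starts in both subunits, the starts of Rps27rt and Rps27, and the starts of Rpl22l1 and Rpl4, which have no TOP start by this rule. In GRCm38.p6 they are Rpl15 at chr14:18270969-18270998 (minus strand), Rpl38 at chr11:114668568-114668597 (plus strand), Rps6 at chr4:86857350-86857379 (minus strand), Rps10 at chr17:27635227-27635256 (minus strand), Rps27rt at chr9:114982722-114982751 (minus strand), Rps27 at chr3:90213631-90213660 (minus strand), Rpl22l1 at chr3:28805496-28805525 (plus strand) and Rpl4 at chr9:64173375-64173404 (plus strand).
Rpl15: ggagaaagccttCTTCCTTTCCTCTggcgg
Rpl38: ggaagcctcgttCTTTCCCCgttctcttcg
Rps6: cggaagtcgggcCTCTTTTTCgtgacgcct
Rps10: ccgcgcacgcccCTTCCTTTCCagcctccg
Rps27rt: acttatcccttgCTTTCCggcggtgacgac
Rps27: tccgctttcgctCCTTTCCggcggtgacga
Rpl22l1: cggcgcaagcccgttctcttcccacggctg
Rpl4: cttttcctgtgggagcagccgggtagagag
Rpl15 had the longest run, with 13 pyrimidines. From the first base of Rps27rt and the second base of Rps27 the windows were the same for 17 bases, up to the end of the Rps27 window. Rps27rt was the only one of the 8 paralogs with a TOP start. The 14 genes with a TOP start had a median of 365 TPM in replicate 2 and 411 TPM in replicate 1, against 389 and 438 TPM in the 48 detected genes without one. By the same rule only 1 of 9 matched genes for elongation factors and other TOP mRNAs had a TOP start (11.1%). The 48 genes may therefore include TOP mRNAs, and these medians do not compare TOP mRNAs with others.

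Most members had 1 dominant transcript among those listed for them. The main transcript held a median of 93.5% of a gene's TPM over the 82 detected genes, at least 90% in 44 genes and under 60% in 13 genes. These figures include genes with only 1 listed transcript, such as Rpl32 and Rpl4, whose share is 100% by definition. Rps24, a gene known for alternatively spliced small exons near its 3′ end, had 99.1% of its TPM in Rps24-201 in both libraries. Only 2 transcripts were listed for Rps24, so any other splice form had no TPM of its own. Rpl38 was among the most divided, with 47.0% in replicate 2 and 45.9% in replicate 1 in Rpl38-201, and the rest in other coding transcripts. Rpl11 had 46.8% and 48.7% in Rpl11-201 and 43.0% and 47.9% in Rpl11-210, both annotated as coding.

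In 77 of the 82 genes the main transcript is annotated as protein coding in GENCODE M21, and in 11 genes more than 25% of the TPM lay in transcripts with another annotation. Rpl35 had 89.99% of its TPM in replicate 2 and 88.3% in replicate 1 in Rpl35-203, a processed transcript. Rps20 had 91.8% and 91.9% in Rps20-201, annotated as a retained intron. Rpl12 had 63.3% and 67.0% in Rpl12-201, annotated as a target of nonsense-mediated decay. Rpl23 had 60.1% and 62.7% in Rpl23-204, and Rps18 had 47.2% and 48.6% in Rps18-209, both processed transcripts. Rpl22l1 had 44.8% and 41.7%, and Rpl5 41.1% and 46.1%, in transcripts not annotated as coding. The order of non-coding share among Rpl35, Rps20, Rpl12, Rpl23 and Rps18 was the same in both libraries. Rpl13a had its largest share, 35.5% and 36.7%, in a transcript that is absent from M21, so its type is not given here.

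**Figure D4:**
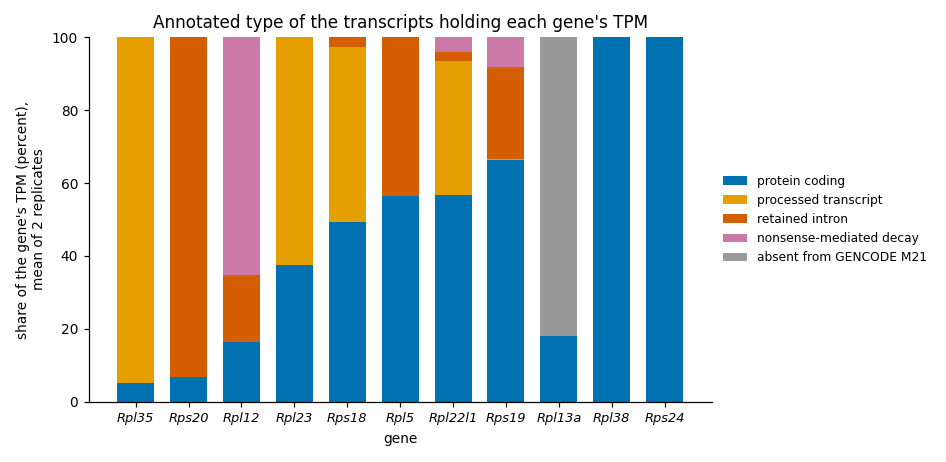
Share of each gene's TPM (percent, mean of both libraries) by the annotated type of the transcript, for 8 of the 11 genes with more than 25% in non-coding transcripts and, at the right, Rpl13a, Rpl38 and Rps24. Rpl35 and Rps20 have under 10% in coding transcripts, and Rpl13a has most of its TPM in transcripts absent from the annotation used.

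Between the libraries, nearly all ribosomal protein genes were lower in replicate 2. The exact two-sided binomial test on expected counts, scaled by each library's gene total and adjusted by Benjamini-Hochberg over 17664 genes, called 79 of the 82 detected members lower at a threshold of 0.05, against 18.7% of all genes tested. It called 1 member higher, Rpl7l1, against 15.7% of all genes tested. This test compares these libraries with counting noise, not conditions, and a difference may be technical. By subunit, 44 of 46 large subunit genes, 31 of 31 small subunit genes and 4 of 5 paralogs were lower. The differences were small: no member was called with a 2-fold difference, against 0.266% of all genes lower and 0.175% higher by that much. The deposited credibility intervals were apart for 64 members in the lower direction, against 6.5% of all genes, and for 1 in the higher direction, against 16.1%.

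Expressed as the log2 ratio of TPM + 1 (replicate 2 over replicate 1), the median was -0.20 over the 82 members and 0.04 over all genes tested. It was -0.19 in the large subunit (46 genes), -0.25 in the small subunit (31 genes) and -0.23 in the paralogs (5 genes). On scaled counts, on which the test was made, the median was -0.26 in members and -0.03 in all genes tested. It was -0.14 and 0.10 when counts were scaled by the spike-in total, and 63 members were then called lower, against 8.46% of all genes, and 2 higher, against 35.2%. With TMM scaling 77 members were called lower, against 14.7% of all genes, and 1 higher, against 20.8%. With DESeq2 size factors 77 were called lower, against 15.6%, and 1 higher, against 19.5%.

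Rps21, a small protein of the small subunit, had the lowest ratio, with 300.3 TPM in replicate 2 and 402 TPM in replicate 1 (log2 ratio -0.42, exact binomial test, adjusted p = 2.5e-26). Next came Rps27rt with a log2 ratio of -0.39, Rps19 with -0.38, Rps20 with -0.35 and Rpl23 with -0.34. All 5 were called lower, with adjusted p of 2.6e-42 for Rpl23 and 3.6e-80 for Rps19 by the same test. Rpl23 had 302 TPM in replicate 2 and 382 TPM in replicate 1.

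At the other end of the range stood Rpl7l1, with 53.1 TPM in replicate 2 and 46.4 TPM in replicate 1 (log2 ratio 0.19, exact binomial test, adjusted p = 0.011). Rpl4, which lines the peptide tunnel, had 568 and 549 TPM (log2 ratio 0.05). On scaled counts its log2 ratio was -0.03, and it was not called (exact binomial test, adjusted p = 0.21). Rps6, the substrate of the S6 kinases, had 334 and 338 TPM, Rps2 had 647 and 663 TPM, and Rplp0 had 755 and 774 TPM, with log2 ratios of -0.02, -0.04 and -0.04. The last 3 were called lower, with adjusted p between 3.0e-12 for Rplp0 and 0.0056 for Rps6 by the exact binomial test, but the sign of their ratio of scaled counts turned with spike-in scaling, and they were then not called. Rpl12 was the other uncalled gene, with an adjusted p of 0.064 by the exact binomial test.

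The ratio moved with effective length. Across the 82 members the log2 ratio had a Pearson r of 0.66 and a Spearman rho of 0.62 with log2 effective length. Across 1570 other genes averaging 100 TPM or more, copies left out, the values were 0.56 and 0.62; all are descriptions across genes of the same libraries. Among members with an effective length under 500 bases the median log2 ratio was -0.26 (33 genes), against -0.18 in 121 other genes of that length and level, of which 86.0% were called lower. Between 500 and 1000 bases it was -0.17 (39 members) against -0.05 (335 other genes), and between 1000 and 2000 bases -0.07 (9 members) against 0.07 (609 other genes). Rpl7l1, the only member above 2000 bases, had 0.19, against a median of 0.15 in 505 other genes. In each length class with more than 1 member the members' median was thus below that of the other genes; the difference between them was not tested. The marker sums given above also differed between the libraries: of 7 choroid plexus markers 5 were called lower in replicate 2 and 1 (Kl) higher, and of 8 meningeal markers 6 lower and 1 (Pdgfra) higher. Of 10 erythroid markers 2 were called lower (Hbb-y and Hba-x) and 6 higher, and of 14 proliferation markers 9 higher. Over all genes tested the shares were 18.7% lower and 15.7% higher. The part of these markers in the result was not tested.

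**Figure D5:**
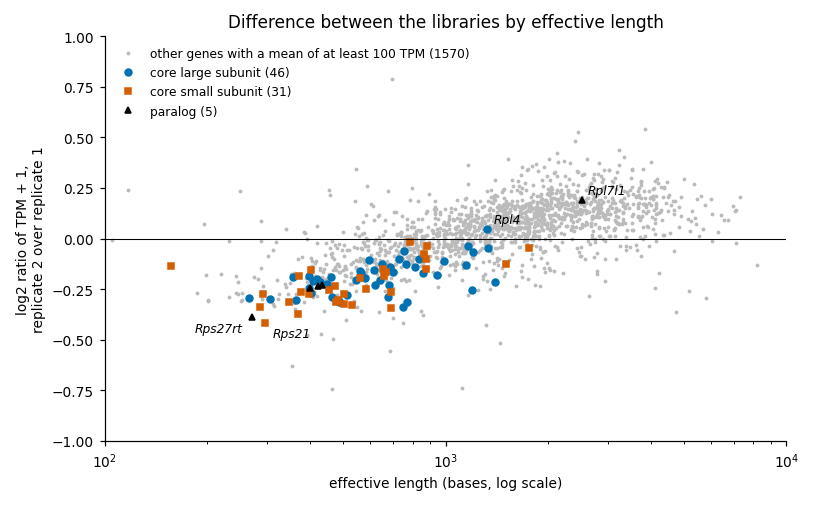
Log2 ratio of TPM + 1 (replicate 2 over replicate 1) against effective length in bases (log axis), for 82 members in colour and 1570 other genes in grey, 6 of which lie outside the axes. Most short genes lie below 0 and most long genes above it, with Rps21 and Rps27rt at the low end and Rpl7l1 above 0.

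Genes that work with the ribosome did not all share the direction. Their counts stand beside 18.7% called lower and 15.7% called higher over all genes tested, and 38.5% and 29.9% among genes averaging 100 TPM or more. Fau and Rack1 were called lower, with log2 ratios of -0.29 and -0.09. Of 6 measured snoRNA host RNAs, 4 were called lower and 0 higher by the exact binomial test (median -0.23), among them Gas5, a non-coding TOP RNA, with 313 TPM in replicate 2 and 397 TPM in replicate 1. Of 15 genes for elongation factors and other TOP mRNAs, 10 were called lower and 2 higher (median 0.00). Eef1a1, the main elongation factor, had 3124 TPM in replicate 2 and 3078 TPM in replicate 1, a TPM ratio just above 1, though its scaled counts were called lower. Tpt1, a TOP mRNA, had 642 and 707 TPM and was called lower. Of 26 ribosome assembly factors 5 were called lower, near the share over all genes, and 8 higher (median 0.12), with Nop56, a box C/D snoRNP protein, at 190.3 and 170.3 TPM. Of 77 mitochondrial ribosomal protein genes, 31 were called lower and 2 higher (median -0.03). Of 11 genes for RNA polymerase I transcription 3 were called lower and 0 higher (median -0.05), and of 10 S6 kinase, mTORC1 and LARP1 genes 3 were called lower and 1 higher (median -0.03). All these medians stand beside 0.04 over all genes tested. The lists were not matched to other genes by effective length, with which the ratio moved.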

How the data were processed

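Total RNA was measured in 2 hindbrain libraries, and both replicates form 1 group. The deposited expected counts, per the file headers, are estimated reads per gene and transcript, which the authors made per replicate from mm10 and annotation M4. The authors also gave TPM and FPKM, normalised for length and depth over all sequences with the spike-ins. The deposited posterior SD and credibility bounds, used as score values, come with that estimate. Transcript shares were computed from TPM, and the deposited percent column was left aside. Aligner, quantification tool and strandedness: not given in the sources used here.

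Symbols, types, coordinates and coding sequences came from GENCODE M21 (GRCm38, the assembly of mm10), matched without version for 42462 of 43346 genes; its gene models can differ from M4. Copies were found with BLAST 2.17.0, and coding identities by global alignment (biopython 1.88), since no protein sequences were used. Expected counts were rounded for the binomial test (scipy 1.17.1), on genes with a mean of at least 10, and log2 values used a pseudocount of 1. With 1 group, its p-values set the difference of these libraries against counting error only; the chi-square per gene was 12.7. Without molecular identifiers, reads may be copies of 1 molecule.

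Named genes were all paralogs, the 4 highest and 4 lowest core genes of each subunit, the 5 highest and 5 lowest ratios, the 5 largest relative posterior SDs, the 5 lowest main transcript shares, stalk and 5S proteins, and the most abundant genes of each other list; genes and copies named beyond this were chosen after their values were seen. A few items that the rule takes are not reported here. The members and lists were chosen with earlier results of these data known. Alternatives were TMM (edgeR 4.0.16), DESeq2 1.42.0 size factors, spike-in scaling, FPKM, posterior means, other limits, each replicate alone and, added after seeing the data, copies summed with their parents. R 4.3.3, Python 3.11.15, pandas 2.3.3, numpy 2.4.6 and matplotlib 3.10.9 were used.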

Additional observations from a re-analysis of the deposited data

How the results depend on the processing

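No paired analysis was possible because the libraries form 1 group. The share of TPM held by the genes (3.93%) was 4.46% without spike-ins and mitochondrially encoded genes and 1.40% in expected counts. Large minus small was -0.29 for core genes with an effective length of at least 300 bases and -0.14 with copies added (chosen after seeing the data), and the SD across core genes was 0.67 with copies added. In expected counts the paralog held 19.1% for Rpl7l1, 46.2% for Rpl22l1, 59.3% for Rpl36al, 62.2% for Rps27l and 81.9% for Rps27rt. Rpl22l1 thus fell below its core form and Rps27l came above it. The latter depends on the split of reads between Rps27 and Rps27rt. With posterior means the shares of Rpl3l, Rpl10l and Rpl39l were 0.0565%, 0.0126% and 0.102%. Requiring a 2-fold difference left 0 members called lower and 0 higher, where the exact binomial test alone called 79 and 1, and spike-in scaling called 2 higher, Rpl4 being added. With spike-in scaling the log2 ratios of Rplp0, Rps2 and Rps6 turned to 0.012, 0.013 and 0.035. By replicate the share of TPM ran from 3.64% to 4.23%, and large minus small from -0.27 to -0.24. With spike-in scaling 63 members were called lower and the median log2 ratio was -0.14; 64 members had credibility intervals apart. For single named genes 85 alternative values kept direction and call, 3 turned and were no longer called (above), 7 kept the direction but lost the call (Rpl5, Rpl27, Rpl27a, Rps23 and Rps27 with spike-in scaling, Rps6 with TMM and DESeq2) and 1 gained it (Rpl4, at 0.098 with spike-in scaling). Direction here was set against the log2 ratio of TPM + 1. On counts scaled by the gene total Rpl4 had -0.027, so on counts its sign turned with TMM, DESeq2 and spike-in scaling.

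A lower credibility bound above 0 would count 85 genes as detected, Rpl10l included, since the deposited bounds are above 0 also for genes with no count. With 2 libraries, 1 group and 1 collection date each, differences between embryos, dates and libraries cannot be told apart. Levels of genes whose windows are shared depend on how the authors' tool divided reads.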
